A study of Mus musculus with 2 samples.

Results

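The transcripts described here are those that the GENCODE M21 annotation types as nonsense_mediated_decay and that reached a TPM (a relative abundance corrected for length) of at least 1 in both heart libraries. There were 984 of them among 7186 annotated transcripts of that type and 141767 annotated transcripts in all, and they belonged to 868 genes. RNA was measured by total RNA-seq in the heart of 2 female B6CASTF1/J mice at 10 days of age, with 1 library from 300 ng of RNA per animal. B6CASTF1/J animals are F1 hybrids of C57BL/6J and CAST/EiJ. The labels name no treatment and no engineered allele, and both animals stand under 1 donor record. They form 1 group, replicates 1 and 2, so no contrast between conditions exists and the spread between the 2 libraries is the only error.

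Nonsense-mediated decay (NMD) is a surveillance pathway that degrades mRNAs whose stop codon lies well upstream of an exon junction. During splicing an exon junction complex is left near each junction, and a ribosome that stops before the last complex recruits the factor UPF1 and triggers decay. Many SR proteins and hnRNPs, the RNA-binding proteins that set splice site choice, keep their own levels in check by splicing in an exon with an early stop, called a poison exon. The annotated type rests on the position of the stop codon and is not a measurement of decay.

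Each library was quantified in 2 ways. The first transcript table, with the headers that RSEM writes, gives TPM and IsoPct, which is how large a share of its gene's TPM a transcript holds, in percent. The second, with the headers that kallisto writes, gives TPM from a separate assignment of reads. The members were chosen by their RSEM TPM in both libraries, so their RSEM levels and IsoPct are given as a description and without a test, while the kallisto values were not used in the choice. The 2 libraries held 40181177 and 39617039 expected counts on annotated transcripts. The heart muscle gene Myh6, the adult-type myosin heavy chain, stood at 8417 and 9608 TPM, and Ryr2, the calcium release channel, at 312 and 349 TPM. Of genes that mark other tissues, Alb of liver had 0.74 and 2.96 TPM, the fast skeletal muscle gene Mylpf 0.69 and 1.03, and Sftpc of lung 0.32 and 0.47.

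The sequence around the annotated stop codon is printed here for some of the members. The type itself rests on where the stop lies relative to the exon junctions, which these short windows do not show. Not printed are Srsf6-201, Hnrnpa1-203 and Qk-202, which end at the same stop as a coding transcript. Hnrnpu-206, with its stop in untranslated sequence of coding transcripts, is not printed either. The lines do not show how frequent each arrangement was. Each line gives 15 bases before the stop codon, the annotated stop codon in capitals and 12 bases after it, from the GENCODE M21 transcript sequences. In the first 7 the stop lies in an exon that no coding transcript of the gene holds. In Srsf4-204 that exon is the first of the annotated transcript. In the others it follows an earlier exon, the poison exon arrangement.
Srsf3-201: cttctcaccaccctcTGAatctgcattagc
Tra2b-206: aagctcaggaataagTGAagctgaaatttg
Tra2a-202: agaagattggtcagaTAGaagcacttgaat
Srsf4-204: tctcatgccccagctTAGagtgcttcaccc
Hnrnpll-203: gaaagaagcccacttTGAaaatgtgttgct
Hnrnpl-213: gtgctaactcactgtTGAagcgtccaatgg
Rbm39-225: gtgaactgtcaatcaTAAggatgagaacaa
On mm10 (GRCm38) the stop codons lie at chr17:29039485-29039487 on the plus strand for Srsf3-201, chr16:22259181-22259183 on the minus strand for Tra2b-206, chr6:49252965-49252967 on the minus strand for Tra2a-202 and chr4:131884388-131884390 on the plus strand for Srsf4-204. Those of Hnrnpll-203, Hnrnpl-213 and Rbm39-225 lie at chr17:80044976-80044978 on the minus strand, chr7:28817391-28817393 on the plus strand and chr2:156178881-156178883 on the minus strand. The windows of Hnrnpl-213 and Rbm39-225 each cross 1 exon junction. The exon that holds the stop was 456 nt in Srsf3-201, 276 nt in Tra2b-206 and 306 nt in Tra2a-202, and 70 to 188 nt in the other 4.

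In the next 7 the stop lies in sequence that other transcripts of the gene translate in another reading frame. They include the paralogs Ptbp1 and Ptbp2, the kinase gene Clk1, the cardiac splicing factor gene Rbm20 and the 3 members with the highest mean TPM.
Ptbp1-201: gtgatgtgcagcgggTGAagatcctgttca
Ptbp2-206: gagatgtgcagcgcgTGAagattctgtaca
Clk1-210: aaattgttgatacttTAGgtgaaggtgctt
Rbm20-201: accggaggtgttcagTGAacttagcattcc
Ndufa3-204: aattatgcccatgatTAGcccctacaccaa
Ppia-201: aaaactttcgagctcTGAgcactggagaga
Mdh2-203: ccaggaaaccaggaaTGAcacgggatgacc
The stop codons lie at chr10:79862473-79862475 on the plus strand for Ptbp1-201, chr3:119724160-119724162 on the minus strand for Ptbp2-206, chr1:58419713-58419715 on the minus strand for Clk1-210 and chr19:53853616-53853618 on the plus strand for Rbm20-201. Those of Ndufa3-204, Ppia-201 and Mdh2-203 lie at chr7:3619449-3619451, chr11:6418241-6418243 and chr5:135785932-135785934, all on the plus strand, and the window of Mdh2-203 crosses 1 exon junction. Ptbp1-201 and Ptbp2-206 ended at a TGA in an exon of 93 nt in both genes, 361 nt before the last junction in both.

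The annotated type follows from the position of the stop, so these distances describe the annotation of the members. Of the 982 members with an annotated stop codon, 974 (99.2%) had it over 50 nt before the last exon junction, a distance commonly used to define NMD targets. The share was 99.5% of all annotated NMD transcripts and 0.369% of 15715 coding transcripts at the same TPM minimum. The median distance was 358 nt (interquartile range 169 to 840 nt), and the median number of junctions after the stop was 3. The longest distance was 12430 nt in Stard9-203, and Hmcn2-206 had 69 junctions after its stop. The 8 members at 50 nt or less were Cdipt-203, Mtfr1l-205, Mrrf-202, Ubl5-205, Huwe1-212, Arhgap23-204, Fign-201 and Dtnbp1-207, and in Fign-201 and Dtnbp1-207 the stop came after the last junction. Rapgef1-207 and Cwf19l1-208 had no annotated stop codon. These 10 are named because they are the exceptions.

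**Figure D1:**
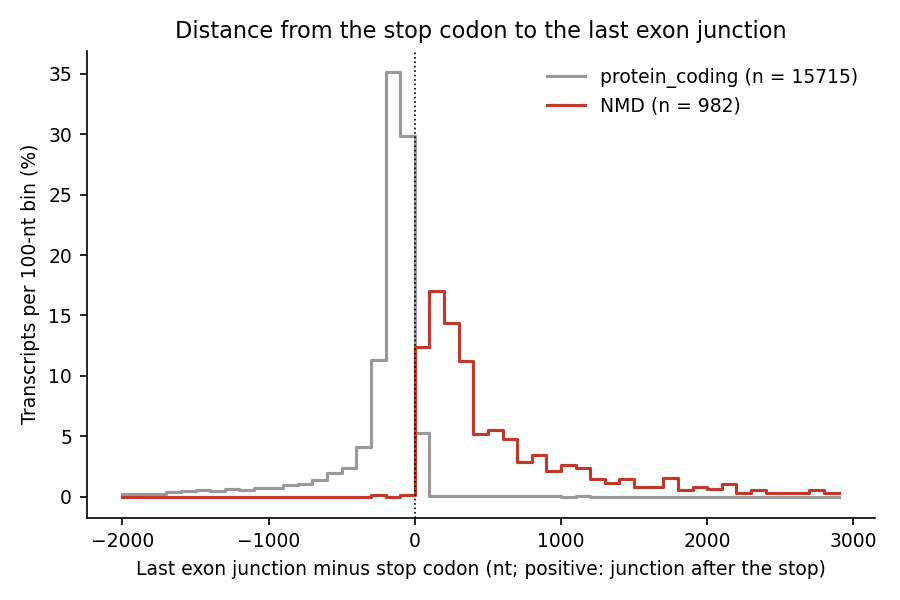
Distance from the annotated stop codon to the last exon junction in nt (x axis, positive where the junction comes after the stop) against the percent of transcripts per 100-nt bin (y axis), for 982 NMD members and 15715 coding transcripts at the TPM minimum. The NMD members lie to the right of 0 with a median of 358 nt, and the coding transcripts have a median of -136 nt. Transcripts beyond the ends of the axis are not drawn.

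By where the stop fell, 601 members (61.2%) had it inside coding sequence of another frame, 162 (16.5%) in an exon outside all coding transcripts, and 92 (9.37%) in an extension of a coding exon. A further 86 (8.76%) ended at the same stop as a coding transcript, 15 had the stop in untranslated sequence of coding transcripts, 13 in a retained intron and 13 lay in genes without a coding transcript that has a stop. Among all annotated NMD transcripts the 3 most frequent classes held 57.3%, 20.4% and 11.0%. The class with the same stop had a median coding sequence of 85.1% of the longest coding sequence of the gene. The median over all members was 24.3%, or 303 nt, and 707 members shared the start codon of a coding transcript. The stop codon was TGA in 55.8%, TAA in 23.3% and TAG in 20.9% of members, and in 50.7%, 26.6% and 22.7% of coding transcripts at the minimum.

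Set against the most abundant coding transcript of the gene, 970 members could be compared exon by exon within the stretch that both span. An exon was skipped in 380, an exon was added in 329, a splice site was shifted in 411 and an intron was retained in 25, and 231 had more than 1 of these kinds. In 166 members the only difference was a single skipped exon, with a median of 109.5 nt, and in 159 of these its length was not a multiple of 3. In 143 the only difference was a single added exon, with a median of 97 nt, of which 95 were not a multiple of 3. In 199 it was a single shifted splice site, by a median of 49 nt, and 177 of these shifts were not a multiple of 3. Mnat1-203 (Mnat1 encodes a subunit of the CDK-activating kinase) skipped 1 exon of 74 nt, and Commd2-201 skipped 1 of 83 nt. Ppia-201 differed by a shift of 5 nt, Ndufa3-204 by one of 10 nt and Angptl4-202 by one of 4 nt. In 76 members no difference lay in the stretch that both span.

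Most members were present at a few TPM. Their median TPM was 3.32 in replicate 1 and 3.21 in replicate 2, against 4.55 and 4.52 for all transcripts at the minimum and 5.28 and 5.29 for the coding ones. By mean TPM 255 members were under 2, 153 were at 10 or more and 11 were at 100 or more. Together they held 0.867% and 0.879% of all transcript TPM, and 386912 and 396986 expected counts, of which Lars2-209 alone gave 670 and 23985. Within their own genes they held 18.8% and 18.7% of the TPM by RSEM, and 16.8% and 17.6% by kallisto. Of annotated NMD transcripts 13.7% passed the minimum, against 17.1% of all transcripts, 30.5% of coding ones and 11.5% of retained introns. Just inside it were Rbm38-206 (1.2 and 1.00 TPM), Rpl3-205 (1.23 and 1.00) and Cipc-209 (1.00 and 1.45), and just outside were Rftn2-203 (1.09 and 0.99), Elp5-206 (2.56 and 0.99) and Grip2-203 (1.61 and 0.99). The expected count was at least 10 in both libraries for 983 members.

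Of 3409 detected genes (gene TPM of at least 1 in both libraries) with an annotated NMD transcript, 868 (25.5%) held a member. The share was 5.46% of genes at 1 to 5 TPM, 25.1% at 5 to 20, 38.0% at 20 to 100 and 55.8% at 100 or more. A minimum of 1 TPM is a smaller share of a more abundant gene, so the rule itself leads to such a rise. A single member was found in 765 genes, 90 genes had 2 and 13 had 3. All were in protein-coding genes, and 9 members were on the X chromosome.

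IsoPct was mostly a minor share of the gene. The median was 18.3% in replicate 1 and 17.9% in replicate 2, or 18.3% ± 0.265 over transcript means (SD of the 2 library medians, n = 2), with an interquartile range of 10.2 to 31.1%. It was 35.6% for all transcripts at the minimum, 44.9% for coding ones, 16.4% for processed transcripts and 9.21% for retained introns. IsoPct was under 10% in 242 members, 10 to 25% in 394, 25 to 50% in 258 and at least 50% in 90. The latter are 9.15% of the members, against 39.2% of all transcripts at the minimum. The lowest value was 0.125%, in Uqcrc1-208, a transcript of a complex III core subunit gene. The 2 hearts differed by a median of 2.57 percentage points, and 731 members were within 5 points.

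**Figure D2:**
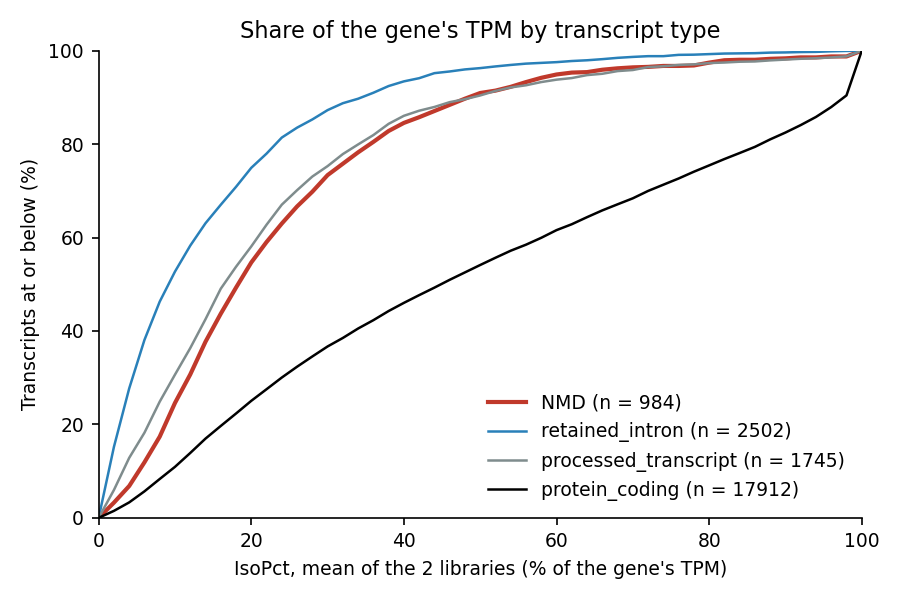
Cumulative percent of transcripts (y axis) at or below a given IsoPct (x axis, in percent, mean of the 2 libraries), for 984 NMD members and for other types at the TPM minimum. The NMD curve has its median at 18.3%, between retained introns at 9.21% and coding transcripts at 44.9%.

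An NMD transcript was the most abundant transcript of its gene in both libraries in 160 cases (16.3%), against 46.7% of all transcripts at the minimum and 54.7% of coding ones. Among genes with over 1 annotated transcript the count was 150 (15.4%, against 42.4%). By kallisto 168 members (17.1%, against 41.1%) led their gene, and RSEM and kallisto named the same leading member in 101 cases. At the gene level, NMD transcripts together exceeded the coding transcripts in both libraries in 141 genes by RSEM, in 147 by kallisto and in 97 by both. In the median gene the members summed to 20.96% of TPM and the coding transcripts to 63.0%, and 59 genes had no coding transcript at the minimum.

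In 3 members with a very high IsoPct the kallisto share was nearly the same. Mmaa-202 (Mmaa acts in cobalamin metabolism) had 9.11 and 9.44 TPM, an IsoPct of 91.8% and 91.1%, and a mean kallisto share of 92.5%. Mnat1-203 had 8.85 and 9.33 TPM, an IsoPct of 90.8% and 91.6%, and a kallisto share of 91.2%. Colec12-201, from a scavenger receptor gene, had 9.09 and 7.32 TPM, an IsoPct of 88.0% and 91.0%, and a kallisto share of 88.9%. In these 3 genes the leading coding transcript was under 1 TPM in both hearts by RSEM. Commd2-201 (81.8% and 81.9%) and Nkiras1-201 (82.8% and 83.2%) were farther apart, with kallisto shares of 89.6% and 71.6%.

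Other members with an equally high IsoPct did not keep it. Mrps14-201, from a mitochondrial ribosome gene, had 37.9 and 40.5 TPM and an IsoPct of 95.7% and 94.1%, but 5.74 and 6.64 TPM and a share of 10.5% by kallisto. Sra1-203 had an IsoPct of 90.8% and 81.8% and a kallisto share of 35.4%. Gm42417-202 held 100% of its gene by RSEM (49.4 and 32.0 TPM) and is listed at 0 in both libraries by kallisto. Of the 90 members at an IsoPct of 50% or more, 54 were also at 50% or more by kallisto. For Mrps14-201 and Gm42417-202 the 2 methods were farther apart than the 2 hearts.

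Between the methods, 730 members (74.2%) also reached 1 TPM in both libraries by kallisto. The share was 80.2% of all transcripts at the minimum, 85.6% of coding ones and 67.9% of retained introns. Another 94 reached it in 1 library, 160 in neither, and 75 (7.62%, against 8.58% of all) were under 0.01 TPM in both. Within 2-fold in both libraries were 522 members (53%, against 65.6% of all and 72.3% of coding transcripts), while kallisto was over 2-fold higher in 120 and over 2-fold lower in 198. On the log2(TPM + 0.1) scale the median ratio of kallisto over RSEM was 0.11 in both libraries, against 0.21 and 0.19 for all transcripts. That sign depends on what the TPM are scaled over: with both tables rescaled to nuclear protein-coding genes, and the minimum applied again, the median was -0.29. The size of the ratio also depends on which method chose the members: with kallisto TPM as the rule the median was 1.10. The counts of 120 higher and 198 lower therefore hold only for the choice by RSEM. The median absolute ratio was 0.72, against 0.43 for all transcripts at the minimum. Across the 984 members, which share reads within genes, the Spearman correlation of the 2 methods was 0.56 in replicate 1 and 0.53 in replicate 2, and it was 0.64 and 0.65 across all transcripts at the minimum.

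**Figure D3:**
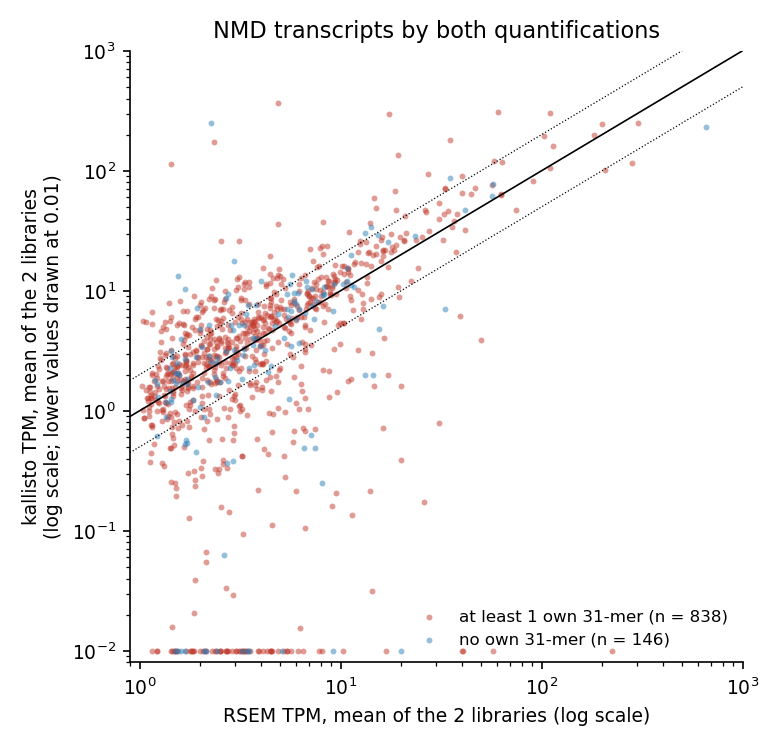
Mean TPM of the 984 members by RSEM (x axis, log scale) and by kallisto (y axis, log scale, with values under 0.01 drawn at 0.01), where the solid line marks equal values and the dotted lines a 2-fold difference. Members without a 31-base word of their own (146, blue) and with one (838, red) lie on both sides of the line, with 198 members over 2-fold lower and 120 over 2-fold higher by kallisto.

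The difference between methods repeated in both hearts and was smaller for whole genes than for the members. The ratio of kallisto over RSEM in replicate 1 had a Spearman correlation of 0.90 with that in replicate 2 over the 984 members. For the whole gene, the 2 methods were within 2-fold in both libraries for 820 of 868 member genes, with a median absolute log2 ratio of 0.35. The signed median of kallisto over RSEM was 0.34 for these whole genes, against 0.11 for the members. Of the 75 members under 0.01 TPM by kallisto, 72 had a whole gene within 2-fold. The absolute ratio was smaller in longer members, and the part of length in it was not tested. Length and the signed ratio had a Spearman correlation of only 0.054 over the members. Of 137 members up to 600 nt, 56.9% reached 1 TPM by kallisto in both libraries and the median absolute log2 ratio was 1.59. Of 363 members of 2000 nt or more 80.2% did, and the ratio was 0.52. All transcripts at the minimum gave 43.9% and 2.79 up to 600 nt, and 90.8% and 0.29 at 2000 nt or more. The members had a median of 29 words of 31 bases found in no other annotated transcript, which is about what 1 new junction gives. That was 3.08% of their words, against 7.45% for all transcripts at the minimum. There were 146 members (14.8%, against 14.1%) with no such word, 444 with 1 to 30, and 85 in which over 20% of words were their own. The share that reached 1 TPM by kallisto in both libraries did not move steadily with unique sequence. It was 76.7% of members with no own word, 72.7% of those with over 0 to 5% own words, 70.8% at over 5 to 20% and 88.2% above 20%. The median absolute log2 ratios were 0.68, 0.72, 0.90 and 0.50. For all transcripts at the minimum the shares were 68.1%, 80.3%, 71.7% and 90.4%, and the ratios 0.72, 0.50, 0.73 and 0.29. The credibility interval that RSEM gives for TPM had a median width of 81.4% of the level, against 49.3% for all transcripts, and its lower bound was at least 1 TPM in both libraries for 584 members (59.3%, against 72.5%).

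The largest gaps went in both directions. In favour of kallisto, Cyc1-202, from the cytochrome c1 gene of complex III, had 7.72 and 2.02 TPM by RSEM but 344 and 386 TPM by kallisto. Ndufb8-205 had 2.01 and 2.52 TPM against 219 and 283, and Ndrg4-210 had 1.14 and 1.73 against 104 and 123. Gm49356-201, which held 100% of its gene by both methods, had 2.84 and 1.83 against 144 and 200. In favour of RSEM, Rab11b-204, from a GTPase gene of recycling endosomes, had 58.9 and 55.3 TPM by RSEM and is listed at 0 by kallisto in both hearts, as is Rpl6-208 at 48.3 and 31.8. Sequence of both also occurs in transcripts of other genes, namely 661 words of 31 bases of Rab11b-204 and 396 of Rpl6-208.

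Regulators of splicing, the genes best known for poison exons, held members in both lists examined. Of the 11 detected SR protein genes with an annotated NMD transcript, 7 held a member (63.6%, against 25.5% of all genes), and of 32 genes for hnRNPs and other splicing regulators 21 did (65.6%), with 30 members. Their median gene levels were 28.1 and 44.0 TPM, a range in which 38.0% of all genes held a member. Median IsoPct was 12.6% and 10.8%, against 18.3% for all members. Over all members IsoPct fell with gene TPM (Spearman correlation -0.48, against -0.47 over all transcripts at the minimum). The minimum lets smaller shares pass in more abundant genes, and its part in this fall was not tested. The lower medians of both lists can not be told apart from the gene level. By kallisto 6 of 7 and 21 of 30 reached 1 TPM in both libraries.

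Among SR proteins, Srsf6-201 was the highest, with 18.8 and 17.4 TPM in the 2 hearts. Its IsoPct was 40.4% and 44.2%, and kallisto gave 24.5 and 22.2 TPM. The leading coding transcript Srsf6-203 had 20.9 and 15.95 TPM, so the 2 isoforms overlapped in level. Srsf3-201, with the stop in its exon of 456 nt printed above, had 12.6 and 9.92 TPM (IsoPct 20.6% and 18.7%) by RSEM and 23.1 and 16.7 TPM by kallisto, and its coding partner Srsf3-202 had 20.6 and 17.1. Tra2b-206 had 7.60 and 7.39 TPM by RSEM and 8.19 and 6.24 by kallisto, below Tra2b-204 at 12.1 and 10.6. Tra2b and Tra2a encode the SR-like activators of exon inclusion related to fly transformer-2. Tra2a-202 had 2.08 and 1.83 TPM by RSEM and 6.16 and 5.98 by kallisto. Srsf1-204 had 5.90 and 5.74 TPM and Srsf4-204 had 2.48 and 1.45 by RSEM, while kallisto gave 3.41 and 2.19 for the former and 3.76 and 1.80 for the latter. Srsf2-204 was the exception, with 10.1 and 8.32 TPM by RSEM, 0.0108 and 0 TPM by kallisto, and no 31-base word of its own. The 4 SR genes without a member had their most abundant NMD transcript below the minimum in at least 1 library by RSEM. Srsf11-206 had 0.56 and 0.87 TPM by RSEM but 3.26 and 2.08 by kallisto. Srsf5-208 had 0 and 0.29 TPM, Srsf7-203 had 1.06 and 0.28 and Srsf9-205 had 0.82 and 0.67 by RSEM, and kallisto gave 0 and 1.06, 1.66 and 0.378, and 1.36 and 0.711.

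**Figure D4:**
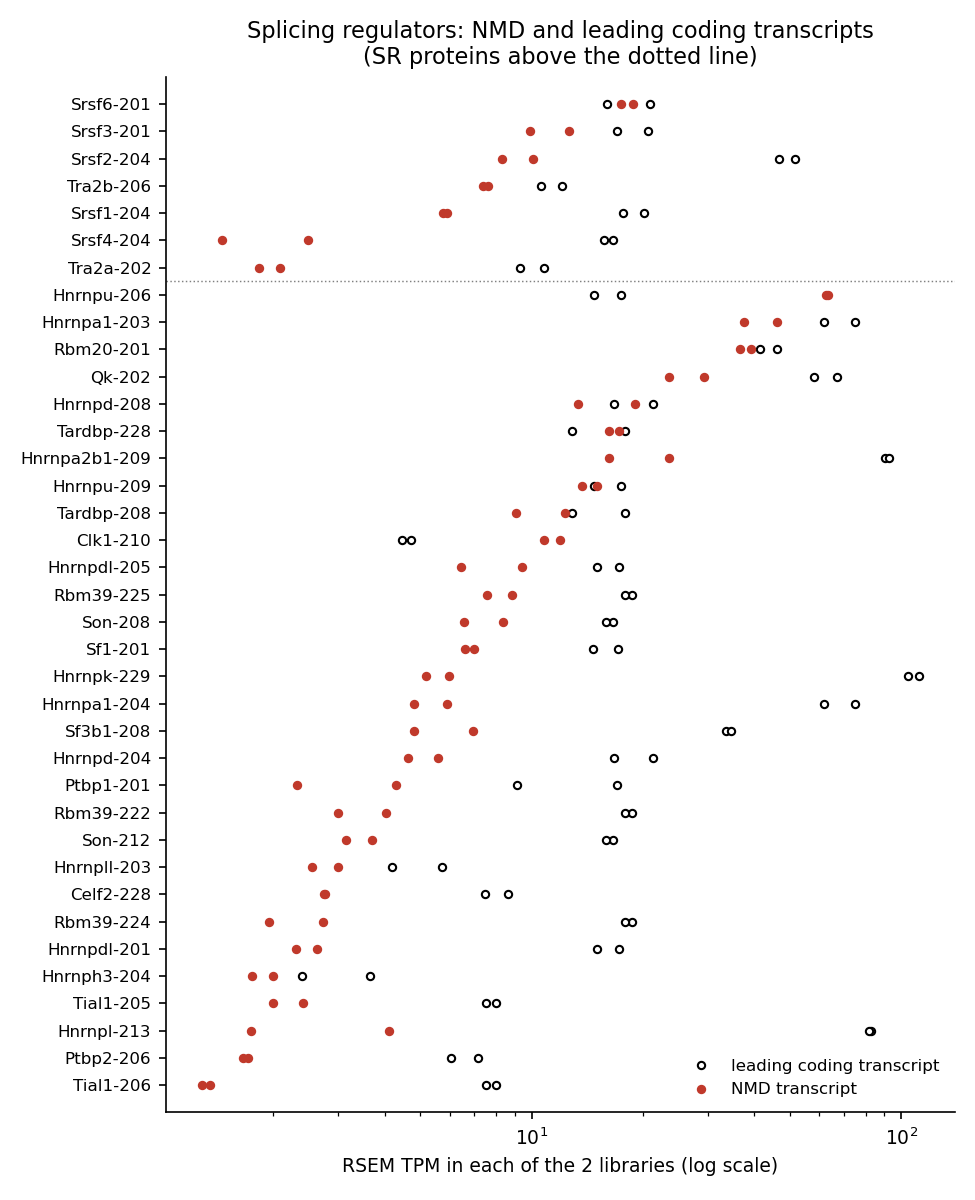
RSEM TPM (x axis, log scale) of the NMD members of SR proteins and other splicing regulators (red) and of the leading coding transcript of the same gene (open circles), 1 point per library. Hnrnpu-206 and Clk1-210 lie above their coding partner in both libraries, and most others lie below it.

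Hnrnpu-206 was the most abundant NMD transcript of a splicing regulator. It had 63.5 and 62.6 TPM by RSEM and 63.3 and 61.3 by kallisto, with an IsoPct of 58.2% and 60.8%, while the leading coding transcript Hnrnpu-201 had 17.5 and 14.7 TPM. Its coding sequence is 99.1% as long as the longest of the gene. The second member of the gene, Hnrnpu-209, had 13.7 and 15 TPM by RSEM and at most 0.0630 by kallisto. Hnrnpa1-203, which ends at the same stop as a coding transcript and skips 1 exon of 700 nt of Hnrnpa1-202, had 46.1 and 37.4 TPM by RSEM and 36.6 and 27.1 by kallisto. Rbm20, a splicing factor of titin and other cardiac genes, contributed Rbm20-201 with 39.2 and 36.6 TPM, an IsoPct of 33.0% and 34.3%, and kallisto values of 45.5 and 41.4 TPM. It was close to the coding Rbm20-203 at 46.0 and 41.4 TPM, and it has 1783 31-base words of its own.

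Clk1-210, from a kinase that phosphorylates SR proteins, was the other member of this group that led its gene. It had 10.8 and 11.9 TPM by RSEM, 9.85 and 12.4 TPM by kallisto, and skips 1 exon of 91 nt, while the coding Clk1-201 had 4.70 and 4.46 TPM. Qk-202, from the quaking gene, had 29.3 and 23.5 TPM by RSEM and 51.9 and 42.3 by kallisto. The members Tardbp-228 (17.2 and 16.2 TPM) and Tardbp-208 (12.3 and 9.08 TPM) were seen by kallisto at 21.4 and 22.7 and at 12.8 and 11.2 TPM. Hnrnpa2b1-209 had 16.2 and 23.6 TPM by RSEM and is listed at 0 by kallisto, as are Hnrnpd-204 (4.62 and 5.57) and Ptbp2-206 (1.71 and 1.66). Ptbp1-201 had 4.28 and 2.31 TPM by RSEM and 6.17 and 4.27 by kallisto. Hnrnpa2b1-209, Hnrnpd-204, Ptbp2-206 and Ptbp1-201 have no 31-base word of their own, and neither has Clk1-210. Rbm39-225 had 8.86 and 7.59 TPM, Rbm39-222 had 4.03 and 3.00 and Rbm39-224 had 2.73 and 1.95, all lower in replicate 2, and kallisto gave 8.12 to 12.7 TPM for the 3. Hnrnpl-213 had 1.74 and 4.10 TPM, and Hnrnpll-203 had 3.00 and 2.55 by RSEM and 6.98 and 6.82 by kallisto. The other 13 members of the group had between 1.28 and 19.0 TPM in a library by RSEM.

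Nuclear genes of oxidative phosphorylation gave the most abundant member. Of 21 such genes with an annotated NMD transcript 10 held a member (47.6%), and their median gene TPM of 376 falls in the class where 55.8% of all genes did. Ndufa3-204, from an accessory subunit of complex I, was the highest of all members at 661 and 652 TPM with an IsoPct of 94.2% and 94.4%, against 27.3 and 23.8 TPM for the coding Ndufa3-201. By kallisto it had 231 and 234 TPM and 46.6% of its gene. It differs from the coding transcript by a shift of 10 nt at a splice site and has no 31-base word of its own. Its stop lies 56 nt before the last junction.

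The other members from these genes differed between the methods by varying amounts. Atp5f1-203 had 193 and 207 TPM by RSEM and 239 and 250 by kallisto, with an IsoPct of 51.5% and 50.6%, and it adds 1 exon of 167 nt. Ndufs4-204 had 116 and 111 TPM by RSEM and 157 and 165 by kallisto, with an IsoPct of 59.6% and 55.6%. The coding Ndufs4-206 had 22.1 and 24.8 TPM. A second member, Ndufs4-202, had 34.3 and 45.7 TPM by RSEM and 64.6 and 65.9 by kallisto. Ndufs4 encodes an accessory subunit needed for complex I assembly. Ndufa10-207 had 65.8 and 50.7 TPM by RSEM and 118 and 124 by kallisto. Ndufs6-202 had 65.8 and 55.9 TPM by RSEM and 308 and 306 by kallisto. Sdhaf2-206, from an assembly factor of complex II, had 13.7 TPM in both libraries by RSEM and 21.1 and 20.1 by kallisto, and held 50.8% and 50.2% of its gene. The second member of that gene, Sdhaf2-203, had 3.71 and 2.42 TPM. Ndufa7-202 (6.31 and 5.73 TPM), Cox6c-204 (2.39 and 1.39) and Uqcrc1-208 (1.00 and 1.07) held at most 3.13% of their gene, and of these kallisto placed Ndufa7-202 and Cox6c-204 under 0.5 TPM.

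Genes with symbols of ribosomal proteins held 13 members in 11 of 20 genes (55%), which is near the 55.8% of all genes at 100 TPM or more. The choice by symbol also took in Rps19bp1, which is not itself a ribosomal protein gene and held no member. By kallisto 7 of the 13 reached 1 TPM in both libraries, against 74.2% of all members. Rpsa-206, from the gene for ribosomal protein SA, had 195 and 218 TPM, an IsoPct of 77.4% and 79.0% and a kallisto share of 32.2%. Rpl12-201 had 21.7 and 17.1 TPM by RSEM and 130 and 139 by kallisto. Rpl27a-205 had 19.3 and 15.4 TPM against 300 and 294. Transcripts of other genes also hold 841 words of 31 bases of Rpsa-206, 549 of Rpl12-201 and 241 of Rpl27a-205. Values of genes that share reads with copies are uncertain, and the part of shared sequence in the gap between methods was not tested.

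In the genes of contraction and calcium handling named here, members held a small share of the gene. In abundant genes the minimum lets such small shares pass. Tnnc1-203, from the cardiac troponin C gene, had 8.82 and 6.62 TPM by RSEM and 9.51 and 6.56 by kallisto, which is 0.40% and 0.28% of a gene at 2201 and 2403 TPM. Of 4 sarcomere genes 2 (50%) held a member, against 55.8% of all genes at 100 TPM or more, and Myl4-205 (0.11 and 0.24 TPM) and Tpm1-218 (0.99 and 0.81) stood below the minimum by RSEM. Atp2a2-203, from the SERCA2 calcium pump gene, had 27.2 and 23.4 TPM by RSEM and 29.3 and 26.6 by kallisto, an IsoPct of 0.85% and 0.67%. Camk2d-213 had 2.65 and 1.94 TPM by RSEM and 3.18 and 2.08 by kallisto, and Calm3-202 had 1.87 and 3.20 by RSEM and at most 0.313 by kallisto. These are 3 of 5 genes (60%, against 25.5% of all genes and 38.0% of those at 20 to 100 TPM), beside Cacna1d and Camk2g without a member.

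The known NMD-regulated stress and polyamine genes with an annotated NMD transcript held a member in 3 of 3 cases (100%, against 25.5% of all genes and 38.0% of those at 20 to 100 TPM). Azin1-205, from the antizyme inhibitor gene, had 3.39 and 3.21 TPM by RSEM and 13.5 and 9.29 by kallisto. Tbl2-201 had 3.25 and 2.79 TPM and an IsoPct of 51.5% and 43.8%, and Odc1-205, from the ornithine decarboxylase gene, had 3.27 and 2.06 TPM. Of the genes of the decay machinery itself, 4 had an annotated NMD transcript and 0 held a member, against 25.5% of all genes. Smg5-202 had 0.92 and 0.73 TPM by RSEM and 0.803 and 1.52 by kallisto, and Smg6-202 had 0 and 0.22 by RSEM and 0.163 and 0.214 by kallisto. Magohb-202 had 0.18 and 0 by RSEM but 2.86 and 2.40 by kallisto, and Smg1-204 had 0 in both by RSEM but 3.25 and 3.82 by kallisto. The 3 fatty acid oxidation genes, Acadm, Cpt1b and Hadhb, also had none, against 55.8% of all genes at 100 TPM or more. By RSEM their most abundant NMD transcript had at most 0.40 TPM. By kallisto Acadm-206 had 2.89 and 4.27 TPM, Cpt1b-204 had 0.809 and 1.63, and Hadhb-209 is listed at 0.

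Outside these groups, Ppia-201, from the cyclophilin A gene, had 307 and 295 TPM by RSEM and 252 and 245 by kallisto. Its IsoPct was 80.7% and 81.5% and its kallisto share 40.2%, and 625 of its 31-base words also occur in transcripts of other genes. Mdh2-203, from the mitochondrial malate dehydrogenase gene, skips 1 exon of 169 nt and had 276 and 289 TPM by RSEM and 113 and 119 by kallisto. Idh3a-204, from a subunit gene of isocitrate dehydrogenase, had 95.2 and 110 TPM by RSEM and 188 and 204 by kallisto. Lpl-203, from the lipoprotein lipase gene, had 91.8 and 128 TPM by RSEM and 84.6 and 124 by kallisto. Ppp1cb-205, from a catalytic subunit gene of protein phosphatase 1, had 92.6 and 89.1 TPM by RSEM and 81.6 and 81.5 by kallisto. Eln-203, from the elastin gene, had 64.2 and 85.1 TPM by RSEM and 36.7 and 57.3 by kallisto. Reep5-203 had 64.6 and 62.9 TPM by RSEM and 120 and 118 by kallisto.

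Between the 2 hearts, most members were within 2-fold. The median absolute log2 ratio of RSEM TPM + 0.1 was 0.26, against 0.18 for all transcripts at the minimum. Over 2-fold apart were 56 members (5.69%, against 3.46%), of which 22 (2.24%, against 1.53%) were higher and 34 (3.46%, against 1.93%) lower in replicate 2. In 20 (2.03%, against 0.971%) kallisto gave over 2-fold in the same direction. With 2 animals these differences have no test. With kallisto TPM in place of RSEM, 144 members were over 2-fold apart, and no share over all transcripts is given for this count. The rule sets a minimum for RSEM TPM and none for kallisto TPM, so the counts of 56 and 144 are not alike. The median absolute log2 ratio between the hearts by kallisto was 0.26, against 0.17 for all transcripts at the minimum.

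Lars2-209 stood farthest apart. This transcript of the mitochondrial leucyl-tRNA synthetase gene had 5.86 TPM in the first heart and 213.63 in the second by RSEM, and 18.5 and 591 by kallisto. Its IsoPct was 28.6% and 93.4%, and its kallisto share 24.6% and 48.8%, so by RSEM it was the minor transcript in one heart and the main one in the other. The coding Lars2-201 was level at 14.1 and 14.6 TPM, and the retained intron transcript Lars2-205 moved with the NMD transcript by kallisto, at 32.8 and 596 TPM, while RSEM listed it at 0 in both. Which reads were assigned to Lars2-209 was not examined here, so its level in the second heart is uncertain.

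**Figure D5:**
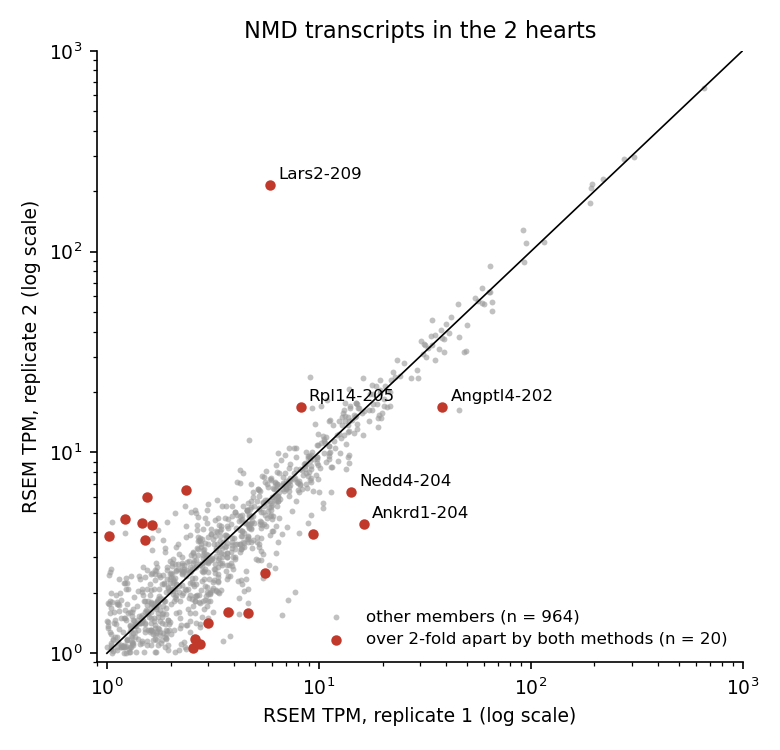
RSEM TPM of the 984 members in replicate 1 (x axis, log scale) and replicate 2 (y axis, log scale), with the line of equal values and, in red, the 20 members over 2-fold apart in the same direction by both methods. Most points follow the line, and Lars2-209 at 5.86 and 213.63 TPM lies farthest from it.

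In Angptl4 and Ankrd1 the whole gene differed as well. Angptl4-202 had 38.3 and 16.8 TPM by RSEM and 45.1 and 18.2 by kallisto, and its gene, which encodes an inhibitor of lipoprotein lipase, had 48.1 and 20.3 TPM. IsoPct was level at 79.6% and 82.8%. Ankrd1-204 had 16.3 and 4.40 TPM by RSEM and 7.74 and 2.95 by kallisto, with an IsoPct of 7.80% and 5.09%. Its gene, a stress-responsive cardiac ankyrin repeat factor, had 209 and 86.6 TPM. Another member of that gene, Ankrd1-203, had 45.7 and 16.2 TPM by RSEM but 1.08 and 0.494 by kallisto. In Nedd4-204, from a ubiquitin ligase gene, the member had 14.2 and 6.32 TPM by RSEM and 9.69 and 1.07 by kallisto while the gene stood at 228 and 219. Rpl14-205 had 8.20 and 16.8 TPM by RSEM and under 0.001 and 49.3 by kallisto, at a level gene of 152 and 150. Laptm4b-202 had 1.54 and 6.02 TPM at 33.2 and 34.8 for the gene. The remaining 14 were Agps-206, Ccnl1-203, Chpf-204, Cldnd1-203, Coq8a-204, Eif6-207, Gpcpd1-213, Mtr-204, Pcnt-205, Ptprg-206, Rrp7a-204, Smc6-205, Tmem179b-203 and Ube2d3-214, with RSEM values between 1.02 and 9.36 TPM.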

How the data were processed

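Total RNA of 2 hearts was analysed, 1 library each. Per the file headers, the deposited RSEM-style tables give the expected count, TPM and IsoPct, a percent of the gene's TPM, with credibility bounds, and the deposited kallisto-style tables give the estimated count and TPM. Per the accompanying text, the authors used mm10 with GENCODE M21; aligner and tool versions are not stated. Reads of the hybrid were assigned on the C57BL/6J reference, so CAST/EiJ reads could be lost. Transcript types were read from the identifiers. Members needed an RSEM TPM of at least 1 in both libraries. Members and gene lists were chosen with earlier results of these data known. Ratios used log2(TPM + 0.1). Stops, exons and 31-base words came from the GENCODE M21 annotation and transcripts. The 2 libraries held 40181177 and 39617039 expected counts. TPM rest on shared reads, and spread between 2 animals is the only error. No test was made; ratio steps were tested on simulated data. Transcripts were named by fixed ranks: 15 by TPM, 10 by IsoPct (gene TPM of at least 5, more than 1 transcript), list members (ribosomal: 5 highest), 5 at each end of the method ratio, those over 2-fold apart by both methods, and 3 on each side of the minimum. Some named results are not reported here. Exceptions in small counts were named after their values were seen. Alternatives changed the minimum, pseudocount, scale, method and replicate. Scripts ran in Python 3.11.15 (pandas 2.3.3, numpy 2.4.6, matplotlib 3.10.9, scipy 1.17.1).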

Additional observations from a re-analysis of the deposited data

How the results depend on the processing

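The choice of the TPM minimum moved the counts by construction. At 0.5 TPM the median IsoPct was 14.3%, the median log2 ratio of kallisto over RSEM 0.15, and 134 members were over 2-fold apart between libraries. At 2 TPM there were 638 members, a median IsoPct of 22.2%, a ratio of 0.092, 19 over 2-fold apart and 634 with the stop over 50 nt before the last junction. At 5 TPM there were 295 members, a median IsoPct of 29.6%, 93 that led their gene, 255 at 1 TPM by kallisto, a ratio of 0.15, 6 over 2-fold apart, 295 with the distant stop and 34 list genes. With kallisto TPM as the rule, the median IsoPct was 8.98%, the ratio 1.10 and 272 were over 2-fold apart. Rescaling to nuclear protein-coding genes shifted log2 TPM by 1.27 and 1.21 (RSEM) and 0.80 and 0.75 (kallisto). It gave 1553 members, a median IsoPct of 13.7%, 1128 at 1 TPM by kallisto, a ratio of -0.29, which is reversed, and 175 over 2-fold apart. The cause was not tested beyond the unequal shifts.

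The share of the gene's kallisto TPM had a median of 14.7%. A pseudocount of 0.01 gave a ratio of 0.11, and 1 gave 0.089 and 25 over 2-fold apart. By kallisto 144 were over 2-fold apart. Leaving out each replicate in turn gave a median IsoPct of 16.15 to 16.21% and a ratio of 0.087 to 0.106. Among alternatives chosen after seeing the data, a lower credibility bound of at least 1 TPM gave 584 members, a median IsoPct of 24.2%, a ratio of 0.13, 10 over 2-fold apart and 579 with the distant stop, and at least 1 own 31-base word gave a median IsoPct of 18.7% and a ratio of 0.12. No paired analysis was possible because there is 1 group.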

Other observations

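In 13 genes 3 members were found together. In Adhfe1 they summed to a mean IsoPct of 94.7% by RSEM and 53.7% by kallisto, in Mrpl3 to 74.5% and 66.7%, in Cenpa to 72.6% and 58.6%, and in Ptprg to 58.5% and 57.2%. By both methods the coding transcripts of these 4 genes summed to less than the members, at most 34.3%. In the other 9 genes (Papola, Slc4a3, Ppp1cc, Gpi1, Oxnad1, Rabggtb, Ttc3, Rbm39 and Anapc5) the members summed to between 13.2% and 48.4% by RSEM.

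A further 651 NMD transcripts reached 1 TPM in both libraries by kallisto but not by RSEM, of 1381 at that level by kallisto. Cox4i1-207, from a complex IV subunit gene, had 0.51 and 0.39 TPM by RSEM and 545 and 470 by kallisto. Atp5j2-204 had 0.38 and 0 TPM against 104 and 91.8, Rpl37a-203 had 0.31 in both against 146 and 130, and Ndufa12-203 had 0.09 and 0 against 57.5 and 57.4. These 4 were picked after their values were seen.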
